A study of Mus musculus with 172 samples.

Results

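The genes described here encode the vacuolar proton pump (V-ATPase), the Ragulator and Rag proteins, the mTOR complexes with their TSC and RHEB switch, and the MiT/TFE transcription factors. They are 39 of the 49671 genes counted per cell, chosen by symbol from knowledge of the pathway, by a rule that uses no measured value but was written with earlier results of these data known. Of them, 6 encode subunits of the membrane sector V0, 8 subunits of the catalytic sector V1, 2 accessory proteins of the pump, 11 Ragulator, Rag and associated proteins, 9 mTOR complex, TSC or RHEB proteins, and 3 MiT/TFE factors. All 39 were found in the files and had at least 1 count.

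The V-ATPase hydrolyses ATP in V1 and moves protons through V0 into lysosomes and other acidic compartments. The pump also binds Ragulator, a scaffold on the lysosome surface that holds the Rag GTPases, and when amino acids are plentiful the Rags bring mTORC1 to RHEB, which activates it. Active mTORC1 keeps TFEB and TFE3 in the cytoplasm, and when it is inactive these factors enter the nucleus and induce lysosome and pump genes.

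Single cells of the inner cell mass (ICM) were profiled by Smart-seq2, a full-length method without molecular identifiers, from blastocysts of Oct4+/- intercrosses on mixed backgrounds. The question was how loss of OCT4, encoded by Pou5f1, changes these cells at the mid (E3.5) and late (E4.5) blastocyst stage. At E3.5 the ICM cells came from 7 control embryos (5 WT and 2 HET, 58 cells) and from 4 embryos without OCT4 (MUT, 29 cells). At E4.5 the control cells of 6 embryos (2 WT and 4 HET) were assigned by the authors to epiblast (EPI, 37 cells) or primitive endoderm (PrE, 29 cells), and 19 MUT cells from 2 embryos had no lineage label. HET embryos carry 1 null allele and are counted as controls. The trophectoderm was lysed by immunosurgery, removed and used to genotype the embryo.

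The cells of each embryo and class were added up, and the embryo is the replicate. The 25 sums held 2736296 to 17453036 counts, from 2 to 11 cells each. Levels are given as CPM, counts relative to the library total after scaling by the trimmed mean of M values. In such sums, fewer expressing cells and less RNA per cell cannot be told apart. Pou5f1 itself lay at 199 to 435 CPM in E3.5 control embryos and at 2.73 to 5.93 CPM in E3.5 MUT embryos. It lay at 70.2 to 242 CPM in EPI, at 46.8 to 152 CPM in PrE, and had no count in either E4.5 MUT embryo. The 8 epiblast markers summed to 2165 CPM or more in EPI and to at most 352 CPM in PrE, and the 9 primitive endoderm markers to at most 73.8 CPM in EPI and 2760 CPM or more in PrE. Both lineage labels thus matched their markers, but they were assigned from the same transcriptomes, so the match is no independent check.

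Promoters of the pump genes that differed between E4.5 MUT cells and EPI are shown first, because the motif bound by the MiT/TFE factors is part of this pathway. Windows from 250 bases before to 50 bases after a start site (RefSeq, GRCm38.p6) were matched for 32 of the 39 members. The E-box CACGTG, a palindrome that reads alike on both strands, was present in a promoter of 9 of these 32 genes, which is 28.1%, against 8.09% of all 27025 genes with such a window. Its longer form TCACGTGA, the core of the element known for TFEB and containing the E-box, was present in 3 of the 32 (Atp6v0d1, Atp6v0e and Atp6v1a) and in 1.12% of all genes. The octamer ATGCAAAT, the motif of OCT4 and its relatives, was searched on both strands. It was present in no window of the 32 genes and in 1.97% of all genes, a share too low for its absence from 32 genes to be informative. Base composition was not matched, and a match is a description of letters and not of binding.

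The 4 windows read 5′ to 3′ on the strand of the gene, with each E-box in capitals. They lie at chr4:117887280-117887579 (minus strand, Atp6v0b), chr17:26676146-26676445 (plus strand, Atp6v0e), chr16:44139210-44139509 (minus strand, Atp6v1a) and chrX:12587509-12587808 (plus strand, Atp6ap2). The Atp6v0b window held 2 E-boxes, 36 and 18 bases before the start site. The Atp6v0e and Atp6v1a windows held 1 each, and the Atp6ap2 window held none.
Atp6v0b: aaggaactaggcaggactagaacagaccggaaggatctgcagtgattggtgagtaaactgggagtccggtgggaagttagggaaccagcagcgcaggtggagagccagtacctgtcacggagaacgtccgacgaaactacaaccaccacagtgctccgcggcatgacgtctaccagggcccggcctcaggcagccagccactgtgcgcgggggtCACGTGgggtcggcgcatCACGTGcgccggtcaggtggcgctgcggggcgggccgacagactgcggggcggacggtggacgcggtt
Atp6v0e: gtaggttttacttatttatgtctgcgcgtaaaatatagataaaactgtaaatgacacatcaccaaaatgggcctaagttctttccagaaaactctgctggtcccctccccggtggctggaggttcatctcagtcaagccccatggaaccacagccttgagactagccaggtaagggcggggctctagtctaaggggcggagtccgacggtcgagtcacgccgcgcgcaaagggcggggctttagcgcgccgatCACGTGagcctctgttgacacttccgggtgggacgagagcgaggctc
Atp6v1a: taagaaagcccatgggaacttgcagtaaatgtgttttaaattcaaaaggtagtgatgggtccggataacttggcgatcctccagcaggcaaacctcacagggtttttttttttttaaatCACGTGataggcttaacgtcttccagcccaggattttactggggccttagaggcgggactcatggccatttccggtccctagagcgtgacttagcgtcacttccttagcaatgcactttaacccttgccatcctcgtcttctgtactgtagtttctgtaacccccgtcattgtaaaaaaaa
Atp6ap2: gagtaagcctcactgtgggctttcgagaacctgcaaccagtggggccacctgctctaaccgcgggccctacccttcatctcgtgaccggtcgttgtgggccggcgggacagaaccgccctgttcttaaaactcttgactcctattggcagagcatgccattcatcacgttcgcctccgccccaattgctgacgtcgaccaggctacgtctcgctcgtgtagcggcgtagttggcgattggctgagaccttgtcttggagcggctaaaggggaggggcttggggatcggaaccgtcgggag

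The members were expressed over a wide range. Per kb of exon in E3.5 control embryos, Lamtor5 (a Ragulator subunit) had the highest mean level at 265 CPM per kb, followed by Atp6ap2 at 233 and the V1 stalk subunit Atp6v1g1 at 219. The kinase gene Mtor reached 1.87 CPM per kb on the same scale and the factor gene Mitf 0.203, the lowest of the 39. In the E4.5 MUT embryos Atp6v1g1 and Lamtor5 led, each at 292 CPM per kb, before Atp6v0b at 245. Summed over the 14 V0 and V1 genes, the level was 2648 ± 181 CPM (SD, n = 7) in E3.5 controls, 2926 ± 473 (n = 4) in E3.5 MUT, 1852 ± 160 (n = 6) in EPI, 2751 ± 477 (n = 6) in PrE, and 3384 and 3606 CPM in the E4.5 MUT embryos. EPI sums thus lay lowest, between 1656 and 2038 CPM, and both MUT embryos lay above every EPI and PrE sum.

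Fewer members were detected in nearly all cells at E4.5 than at E3.5. In E3.5 control cells 30 of the 39 members had a count in 90% of cells or more, against 25 in E3.5 MUT, 16 in EPI, 22 in PrE and 14 in E4.5 MUT cells. Members with a count in fewer than 50% of cells numbered 1 in E3.5 controls (Mitf), 2 in E3.5 MUT, 10 in EPI, 4 in PrE and 8 in E4.5 MUT cells. The same counts were not made over all genes, so the fall is not shown to be particular to the members. The 5 genes Atp6v0b, Atp6v0d1, Atp6v0e, Atp6v1a and Atp6v1g1 had counts in every cell of every class. Each stage was run on 1 plate, so stage and plate cannot be told apart in any comparison across stages. The median share of read pairs per cell that aligned to more than 1 place also differed, at 38.8% and 41.1% in E3.5 control and MUT cells and 24.9%, 19.7% and 21.96% in EPI, PrE and E4.5 MUT cells, and its part in the differences between stages was not tested.

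**Figure D1:**
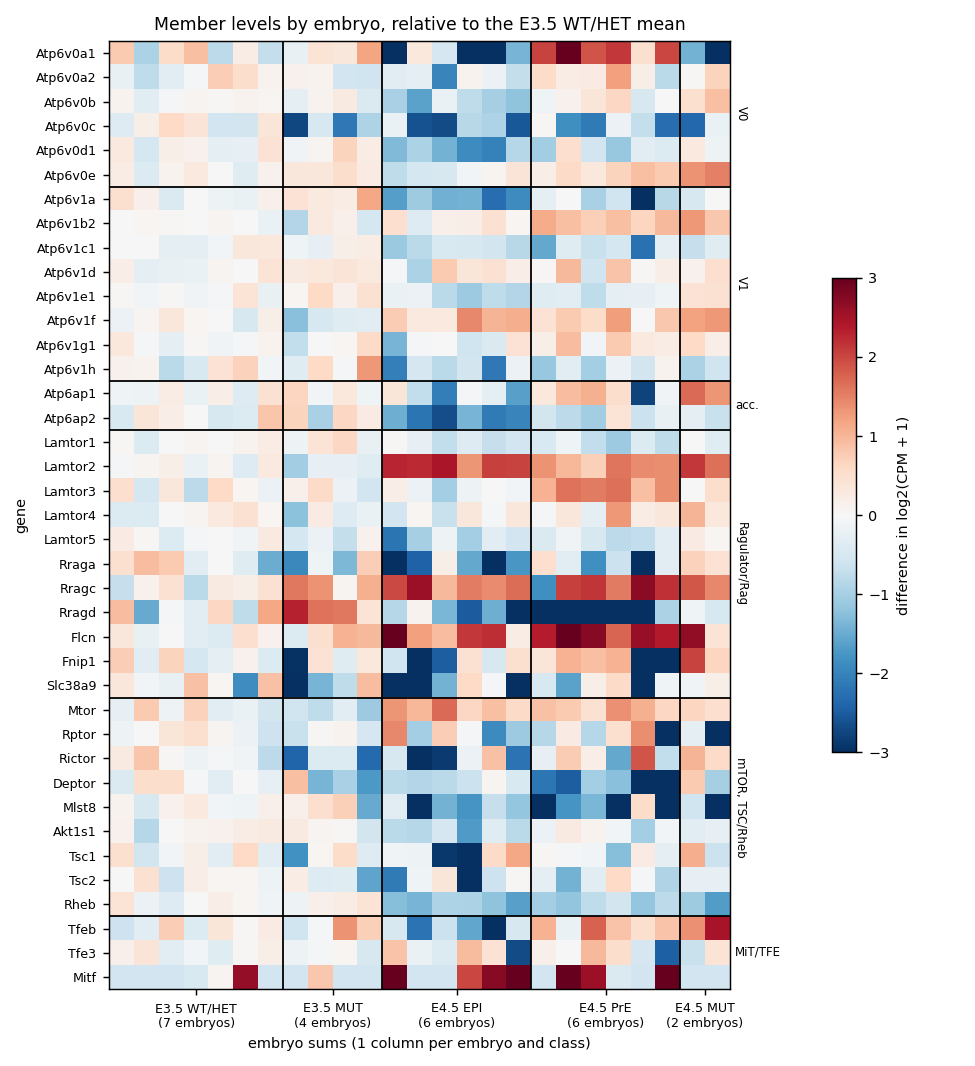
Difference in log2(CPM + 1) of each of the 39 members from its mean over the E3.5 WT/HET embryos, 1 column per embryo and class, with rows grouped by subgroup (V0, V1, accessory, Ragulator/Rag, mTOR and TSC/Rheb, MiT/TFE) and the colour scale ending at -3 and 3. Lamtor2 is red in all E4.5 columns, Rragc in all but 1, pump genes are mostly blue in the 6 EPI columns, and Atp6v0e is reddest in the 2 E4.5 MUT columns.

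At E3.5 no member passed the test between MUT and control embryos. With edgeR's quasi-likelihood test and Benjamini-Hochberg adjustment, 0 of 38 tested members were called, where 6.18% of all 12075 genes were called (3.2% higher and 2.98% lower). 9 members had an unadjusted p under 0.05, as did 2588 of all genes. DESeq2 called 3 members (Atp6v0c lower, Rragc and Rragd higher) and 1607 of all 12075 genes. Fold changes were positive for 18 members, and their median was -0.02 on the log2 scale, as over all genes. No member had MUT and control embryos that did not overlap, where 3.47% of genes were higher without overlap and 4.02% lower.

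By subgroup, the median log2 fold change at E3.5 was 0.10 for V0, 0.20 for V1, 0.22 for the accessory genes, -0.28 for Ragulator/Rag and -0.24 for mTOR and TSC/Rheb. The smallest adjusted p among the members, 0.0666, belonged to Atp6v0c, the proton-carrying ring subunit, with a log2 fold change of -1.38. Rragd, a Rag GTPase, had 46.9, 107, 110 and 178 CPM in MUT embryos and 11.6 to 79.4 CPM (median 33.6) in controls, at 1.42 (adjusted p = 0.0958), with MUT embryo 19 inside the control range. Both genes fall outside the rule for full values and were named after their values were seen. Atp6v0c has 2 named pseudogenes, and read pairs that align to more than 1 place are not in its counts. Atp6v0e had 272, 289, 290 and 331 CPM in the 4 MUT embryos, against 172 to 280 CPM (median 247) in controls. The groups overlapped by 1 embryo on each side, and the log2 fold change of 0.37 (SE 0.16, adjusted p = 0.195) did not pass. The other members with calls elsewhere also gave none here, such as Atp6v1a with 396, 419, 460 and 757 CPM in MUT against 252 to 472 CPM in controls (0.57, SE 0.21, adjusted p = 0.122). Marker sums differed between these groups. The 13 trophectoderm markers summed to 1287 to 2312 CPM in MUT and 273 to 1039 CPM in control embryos, with 4 of 10 tested called higher. The 9 primitive endoderm markers summed to 381 to 607 CPM in MUT and 93.3 to 298 CPM in controls, with 2 of 6 tested called higher. The 8 epiblast markers summed to 430 to 1055 CPM in MUT and 727 to 1381 CPM in controls, with 4 of 8 called lower. The part of these markers in the member values was not tested.

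At E4.5, 4 of the 16 pump genes were higher in MUT cells than in EPI. Of 39 tested members, 4 rose and 0 fell, where 4.92% of all 12953 genes were called (2.3% higher and 2.62% lower). All 4 encode pump proteins: Atp6v0e and Atp6v0b of V0, Atp6v1a, the catalytic V1 subunit, and Atp6ap2, the (pro)renin receptor, an accessory subunit. The median log2 fold change was 1.12 over V0, 0.49 over V1 and 1.71 over the 2 accessory genes, with 15 of these 16 genes positive, against -0.03 over all genes. The 12 others did not pass and ranged from -1.25 (Atp6v0a1) to 2.004 (Atp6ap1). The values per embryo show the size of this difference.

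Atp6v0e, a small V0 subunit, had 588 CPM in MUT embryo 3 and 660 CPM in MUT embryo 8, against 135 to 299 CPM (median 190) in the 6 EPI sums. Both MUT embryos lay above all EPI sums, at a log2 fold change of 1.59 (SE 0.29, adjusted p = 0.0137). They also lay above all 6 PrE sums (264 to 431 CPM, median 353), where the log2 fold change of 0.86 had an adjusted p of 0.0641.

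Atp6v0b, a subunit of the V0 ring, had 429 and 575.5 CPM in MUT embryos 3 and 8, and 100.5 to 269 CPM (median 156) in EPI. No EPI sum reached the MUT values, at a log2 fold change of 1.57 (SE 0.31, adjusted p = 0.0222). PrE had 220 to 477 CPM (median 323), which overlapped MUT, and the log2 fold change against PrE was 0.59 (SE 0.28, adjusted p = 0.343).

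Atp6ap2 had 478 CPM in MUT embryo 3 and 362 CPM in embryo 8, and 90.9 to 220 CPM (median 139) in EPI. MUT lay above EPI without overlap, at a log2 fold change of 1.42 (SE 0.32, adjusted p = 0.0351). PrE lay at 281 to 771 CPM (median 383), on both sides of the MUT embryos, and the log2 fold change against PrE was -0.06 (SE 0.36, adjusted p = 0.975).

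Atp6v1a had 243 and 336 CPM in MUT embryos 3 and 8, and 69.1 to 162 CPM (median 116) in EPI. Every EPI sum was below both MUT embryos, at a log2 fold change of 1.32 (SE 0.31, adjusted p = 0.041). In PrE it ranged from 18.2 to 343 CPM (median 209), with its lowest value in embryo 6, whose PrE sum holds 2 cells, and the log2 fold change against PrE was 0.50 (SE 0.71, adjusted p = 0.837).

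Further pump genes lay in the same direction without passing. The V1 subunit gene Atp6v1b2 had 609 and 434 CPM in MUT embryos 3 and 8, and 187 to 347 CPM (median 278) in EPI, a log2 fold change of 0.87 (SE 0.25, adjusted p = 0.076). Atp6v0d1, a V0 subunit that couples to the V1 stalk, had 141 and 103 CPM in the same embryos, and 27.2 to 62.4 CPM (median 43.8) in EPI, at 1.43 (SE 0.39, adjusted p = 0.0702). Both were without overlap, as were 13 of the 39 members, all higher in MUT. Over all genes 14.7% were higher and 9.36% lower without overlap, since 2 embryos against 6 separate easily. Atp6ap1, an accessory gene named after its values were seen, had the largest pump fold change, 2.004 (adjusted p = 0.0618), with 446 and 340 CPM in MUT embryos 3 and 8 and at most 176 CPM in EPI.

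**Figure D2:**
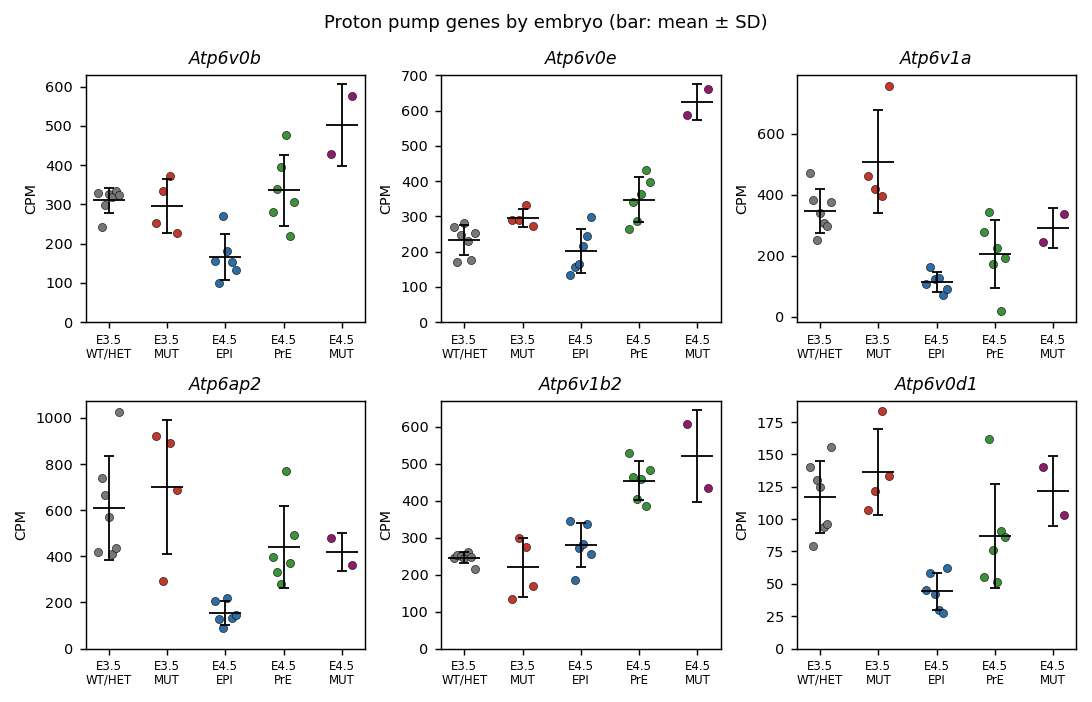
CPM of 6 pump genes in each embryo sum (points) for E3.5 WT/HET (7), E3.5 MUT (4), E4.5 EPI (6), E4.5 PrE (6) and E4.5 MUT (2), with the mean and SD as black bars. In every panel both E4.5 MUT points lie above all EPI points, and for Atp6v0e they lie above all points of the 4 other classes.

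These 4 calls rest on 2 MUT embryos. Without MUT embryo 3 or without MUT embryo 8, none of the 4 was called, with log2 fold changes between 1.08 and 1.77, and without control embryo 7 only Atp6v0e and Atp6v0b were called. With the 2 WT embryos as the only controls no member was called, at log2 fold changes of 1.40 for Atp6v0e, 1.53 for Atp6v0b, 1.51 for Atp6v1a and 1.20 for Atp6ap2. With cells weighted equally, 2 of 39 members were called (Atp6v0e and Tfeb), where 1479 of all 12953 genes were, 716 of them higher. Atp6v0b, Atp6v1a and Atp6ap2 then had adjusted p of 0.085, 0.113 and 0.123. The median was 0.19 over the members and -0.20 over all genes. The MUT sums also held trophectoderm marker RNA: the 13 markers summed to 8852 and 10212 CPM in the MUT embryos, with none at 0, and to 149.5 to 392.2 CPM in EPI, with Cdx2, Krt7 and Elf5 at 0. Of 12 tested, 7 were called higher. The 9 primitive endoderm markers summed to 518 and 788 CPM in MUT and to 5.75 to 73.8 CPM in EPI, with 2 of 8 tested called higher. The 8 epiblast markers summed to 498 and 1154.5 CPM in MUT and to 2165.5 to 3731 CPM in EPI, with 4 of 8 called lower. The part of these markers in the pump values was not tested.

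Ragulator, Rag and mTOR genes gave no call between MUT and EPI. The median log2 fold change was 0.73 over the 11 Ragulator/Rag genes, of which 8 were positive, and 0.24 over the 9 mTOR and TSC/Rheb genes, of which 5 were. Lamtor2, a Ragulator subunit, had 166 and 119 CPM in MUT embryos 3 and 8 and 94.6 to 210 CPM (median 170) in EPI, at -0.23 (SE 0.31, adjusted p = 0.796). Flcn, the folliculin gene, whose product acts on RRAGC and RRAGD, had 131 and 26.6 CPM in the same embryos, both inside the EPI range of 23.3 to 176 CPM. Rheb, the GTPase that activates mTORC1, had 128 and 84.0 CPM and overlapped EPI (86.4 to 143 CPM), at -0.16 (adjusted p = 0.869).

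Against PrE, no member passed in E4.5 MUT cells. edgeR called 0 of 39, where 3.81% of all 12246 genes were called (1.74% higher and 2.07% lower). 6 members had an unadjusted p under 0.05, as did 2015 of all genes. DESeq2 called 5 members and 1223 of all 12246 genes. The members' median was 0.27 on the log2 scale, against 0.05 over all genes, with 24 of 39 positive, but it was -0.06 with cells weighted equally, where that over all genes was -0.24. Lamtor3, a Ragulator subunit, was below PrE without overlap, with 39.3 and 56.9 CPM in MUT embryos 3 and 8 and 73.6 to 125 CPM in PrE, at -1.10 (SE 0.36, adjusted p = 0.134). Atp6v0a1, a V0 isoform named after its values were seen, had 6.58 and 0 CPM in MUT embryos 3 and 8 and 27.7 to 160 CPM in PrE, at -4.66 (SE 1.48, adjusted p = 0.117). Here 7 members lay above PrE without overlap and 2 below, where 14.2% and 7.87% of all genes did. The primitive endoderm markers summed to 518 and 788 CPM in MUT, below the PrE range, with 5 of 9 called lower and Sox7 and Foxa2 at 0, and the trophectoderm markers to 834 to 1779 CPM in PrE. Their part in these values was not tested.

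Set against whole control ICMs, in which EPI and PrE cells of an embryo were summed, 5 members were called, where 7.37% of all 14105 genes were called (3.1% higher and 4.27% lower). This comparison was added after the data were seen. Atp6v0e (1.20, adjusted p = 0.00691), Atp6ap1 (1.47, 0.0228), Atp6v0b (1.01, 0.0361) and the V1 stalk gene Atp6v1e1 (0.95, 0.0183), named after its values were seen, were higher. Mitf, at 0 in both MUT embryos, was lower (adjusted p = 0.02), and passed the filter on low counts only through the controls. Without MUT embryo 3 the calls were Atp6v0e, higher, and Atp6v0a1 and Mlst8, lower. Without MUT embryo 8 the only call was Atp6v0e, and with WT controls alone 0 members were called. The E4.5 MUT embryos are the same 2 as above, so this is not a further sample.

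**Figure D3:**
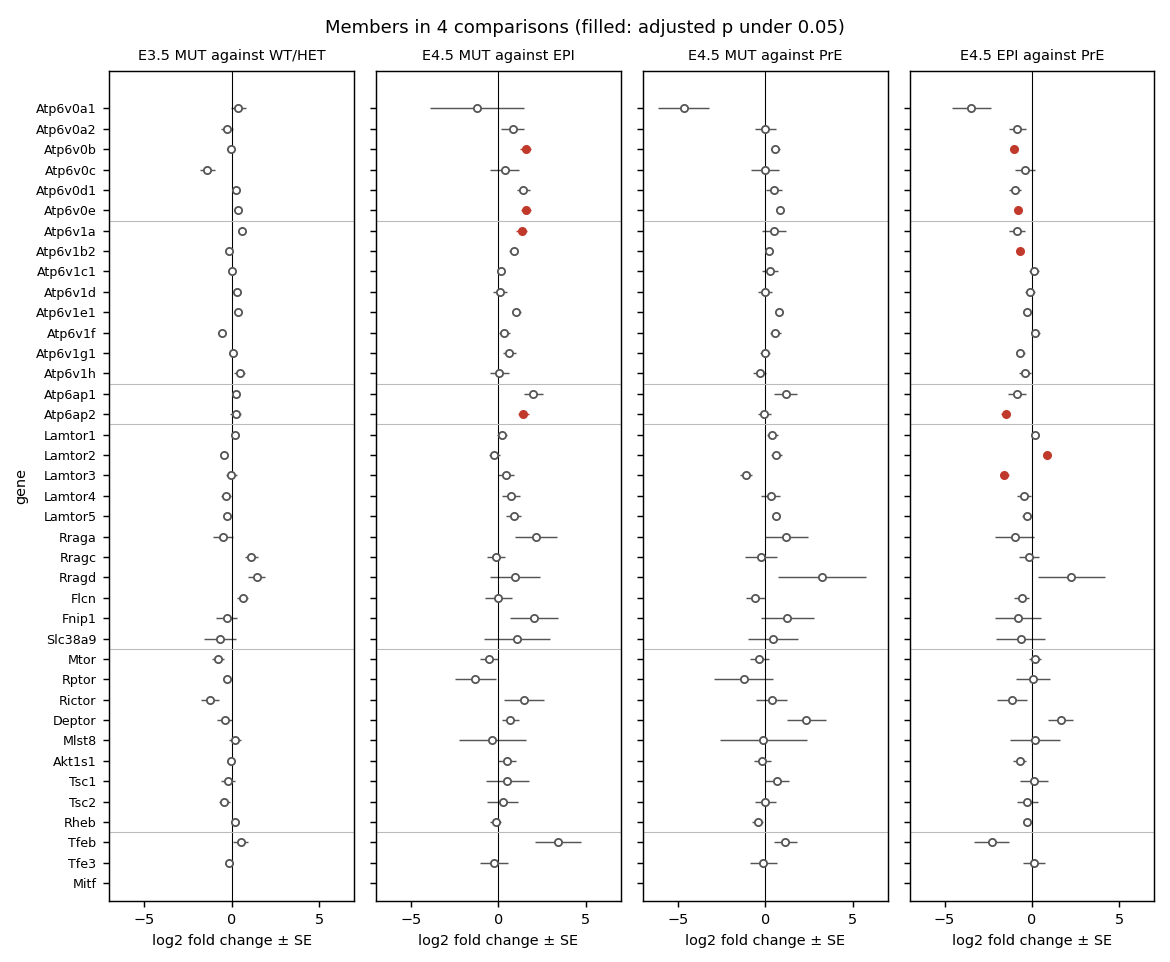
Log2 fold change with SE of 38 members in 4 comparisons of embryo sums, filled where the adjusted p was under 0.05, with a grey line between subgroups. The column of MUT against EPI has 4 filled points, all pump genes on the positive side, the columns of MUT at E3.5 and of MUT against PrE have none, and the column of EPI against PrE has 5 filled points below 0 and 1 above. Mitf is left out because it was at 0 in both E4.5 MUT embryos.

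In control embryos several pump genes were lower in EPI than in PrE. Here 6 of 39 members were called, where 9.81% of all 9762 genes were called (4.61% higher and 5.2% lower), with 1 higher and 5 lower in EPI. The lineages were assigned by the authors from the same transcriptomes, so the p-values describe the assigned classes. V0 had a median log2 fold change of -0.90, V1 of -0.34 and the accessory genes of -1.19, against 0.03 over all genes, and 14 of these 16 genes were negative.

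Atp6ap2 was lower in every EPI sum (90.9 to 220 CPM) than in any PrE sum (281 to 771 CPM), at a log2 fold change of -1.51 (SE 0.27, adjusted p = 0.00232). Atp6v0b fell by 1.01 (SE 0.24, adjusted p = 0.0139), Atp6v0e by 0.78 (SE 0.21, adjusted p = 0.0293) and Atp6v1b2 by 0.69 (SE 0.16, adjusted p = 0.0111). Of these, Atp6v1b2 and Atp6ap2 did not overlap, with 187 to 347 CPM against 385 to 531 CPM for Atp6v1b2. Atp6v0a1 lay at 0 to 24.5 CPM (median 4.15) in EPI and 27.7 to 160 CPM (median 81.3) in PrE, in 10 of 37 EPI cells and 27 of 29 PrE cells, with an adjusted p of 0.0665. With the 2 WT embryos alone no member was called between the lineages, and without embryo 2 the count was 3.

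Of the Ragulator subunits, Lamtor3 was lower and Lamtor2 higher in EPI, the latter call being less stable. Lamtor3 had 18.7 to 44.8 CPM (median 36) in EPI and 73.6 to 125 CPM (median 110) in PrE, without overlap, at -1.57 (SE 0.26, adjusted p = 0.0013). Lamtor2 had 94.6 to 210 CPM (median 170) in EPI and 62.4 to 116 CPM (median 98.2) in PrE, with overlap, at 0.83 (SE 0.22, adjusted p = 0.0269). With embryo as a block, since both sums of an embryo share it, the Lamtor2 call was lost (0.82, adjusted p = 0.101), and it held in 6 of 14 alternatives, with log2 fold changes from 0.25 to 1.01. The products of both genes form a heterodimer within Ragulator. No mTOR, TSC/Rheb or MiT/TFE gene was called, with medians of 0.05 and 0.12. Over the 39 members, 1 was higher in EPI without overlap (Deptor) and 5 lower, where 4.31% and 4.73% of all genes were.

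The mTORC1 genes themselves showed no difference that passed between MUT and control cells at either stage. Mtor had 7.74, 10.1, 11.3 and 13.8 CPM in the E3.5 MUT embryos and 11.7 to 31.4 CPM (median 15.3) in controls, which overlapped, at -0.79 (SE 0.36, adjusted p = 0.231). At E4.5 it had 28.02 and 25.3 CPM in MUT embryos 3 and 8, 26.9 to 59.2 CPM in EPI and 24.5 to 47.1 CPM in PrE. MUT embryo 8 lay below all EPI sums and embryo 3 inside their range. The log2 fold changes were -0.55 (SE 0.52, adjusted p = 0.656) against EPI and -0.33 (SE 0.54, adjusted p = 0.864) against PrE.

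Rptor, which encodes RAPTOR, the subunit that defines mTORC1, had 18.9, 21.3, 31.3 and 33.1 CPM in E3.5 MUT embryos and 19.5 to 42.8 CPM (median 30.6) in controls. The groups overlapped, at -0.24 (SE 0.26, adjusted p = 0.668). At E4.5 the MUT embryos had 25.2 and 2.01 CPM, inside or below an EPI range of 7.4 to 84.6 CPM, and PrE spread from 0 to 82.0 CPM. The log2 fold change against EPI was -1.32 with an SE of 1.17 (adjusted p = 0.624), so a difference of that size was not detectable with this spread. Rptor counts came from few cells: 7 of 19 MUT cells, 24 of 37 EPI cells and 17 of 29 PrE cells had a count. In MUT embryo 8 a single cell held 92% of them.

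Deptor, an inhibitor bound to both mTOR complexes, separated 1 E3.5 MUT embryo from the others. It had 158 CPM in embryo 10 and 24.9, 31.6 and 42.9 CPM in embryos 19, 12 and 17, against 62.5 to 123 CPM (median 81.9) in controls. Embryo 10 lay above all controls and the other 3 below all of them, at a log2 fold change of -0.41 (SE 0.45, adjusted p = 0.676) over the 4 embryos. Without embryo 10 it was -1.38 (adjusted p = 0.0201). At E4.5 MUT embryo 3 had 147 CPM and embryo 8 had 41.9 CPM, with 45.9 to 89.7 CPM in EPI and 0.325 to 41.2 CPM in PrE. MUT embryo 8 thus lay below all EPI sums and embryo 3 above all of them, and both lay above all PrE sums. Against EPI the log2 fold change was 0.69 (SE 0.48, adjusted p = 0.481), and against PrE it was 2.35 (SE 1.10, adjusted p = 0.333).

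Of the MiT/TFE factors, Tfeb had its highest values in E4.5 MUT cells. It had 28.5 and 62.0 CPM in MUT embryos 3 and 8, against 0 to 7.19 CPM (median 4.58) in EPI and 9.0 to 37.6 CPM (median 19.5) in PrE. MUT lay above EPI without overlap and overlapped PrE. The log2 fold change against EPI was 3.42 with an SE of 1.31 (adjusted p = 0.187). With cells weighted equally it was 2.97 and passed (adjusted p = 0.0259). Against PrE it was 1.15 (SE 0.66, adjusted p = 0.429). A Tfeb count was found in 15 of 19 MUT cells, 16 of 29 PrE cells and 9 of 37 EPI cells. Cells thinned to 1023219 counts gave mean shares per embryo of 72.9%, 55.6% and 20.8% in the same order. At E3.5 Tfeb had 6.51, 9.99, 17.7 and 27.8 CPM in MUT and 6.40 to 18.02 CPM in control embryos, at 0.52 (SE 0.44, adjusted p = 0.549).

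Tfe3 had means of 40.9 CPM in E3.5 controls, 36.5 in E3.5 MUT, 46.3 in EPI, 43.1 in PrE and 39.7 in E4.5 MUT embryos. The MUT embryos had 25.2 and 54.3 CPM at E4.5, inside an EPI range of 5.48 to 78.4 CPM, and 28.4, 36.4, 39.03 and 42.2 CPM at E3.5. Its log2 fold changes were -0.15 (SE 0.21) at E3.5, -0.25 (SE 0.82) against EPI and -0.11 (SE 0.78) against PrE, with adjusted p of 0.758, 0.931 and 0.98. Mitf was sparse. It had no count in any of 19 E4.5 MUT cells, which allows up to 15.8% of cells with a count by counting error alone, over the cells of 2 embryos, and is no limit on cells that express it. It had counts in 9 of 37 EPI and 6 of 29 PrE cells. The EPI mean of 11.2 CPM was at least 111-fold above a floor of 3 counts over the MUT embryos, but 2 of the 6 EPI sums were also at 0 and the adjusted p was 0.208.

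**Figure D4:**
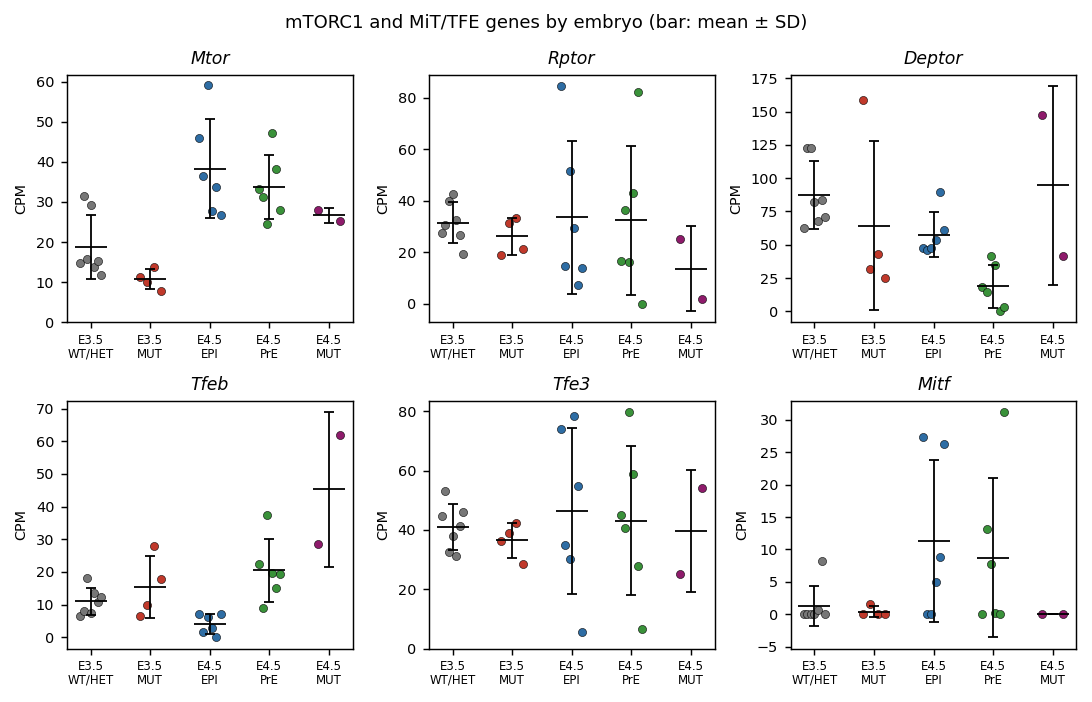
CPM of Mtor, Rptor, Deptor, Tfeb, Tfe3 and Mitf in each embryo sum (points) by class, with the mean and SD as black bars. Deptor shows E3.5 MUT embryo 10 at 158 CPM far above the other 3, both E4.5 MUT embryos lie above all EPI sums for Tfeb, and Rptor, Tfe3 and Mitf spread widely at E4.5.

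Cell shares of the axis genes were lower at E4.5 than at E3.5 for 5 of these 6 genes. Mtor had a count in 55 of 58 E3.5 control cells, 24 of 29 E3.5 MUT cells and 12 of 19 E4.5 MUT cells. Tfe3 had one in all 58 control cells, in 28 of 29 E3.5 MUT cells and in 10 of 19 E4.5 MUT cells, against 29 of 37 EPI cells and 25 of 29 PrE cells. These shares describe detection only. Median counts per cell were 1335828 and 1318327 in E3.5 control and MUT cells, and 1681933, 1772045 and 1609943 in EPI, PrE and E4.5 MUT cells.

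**Figure D5:**
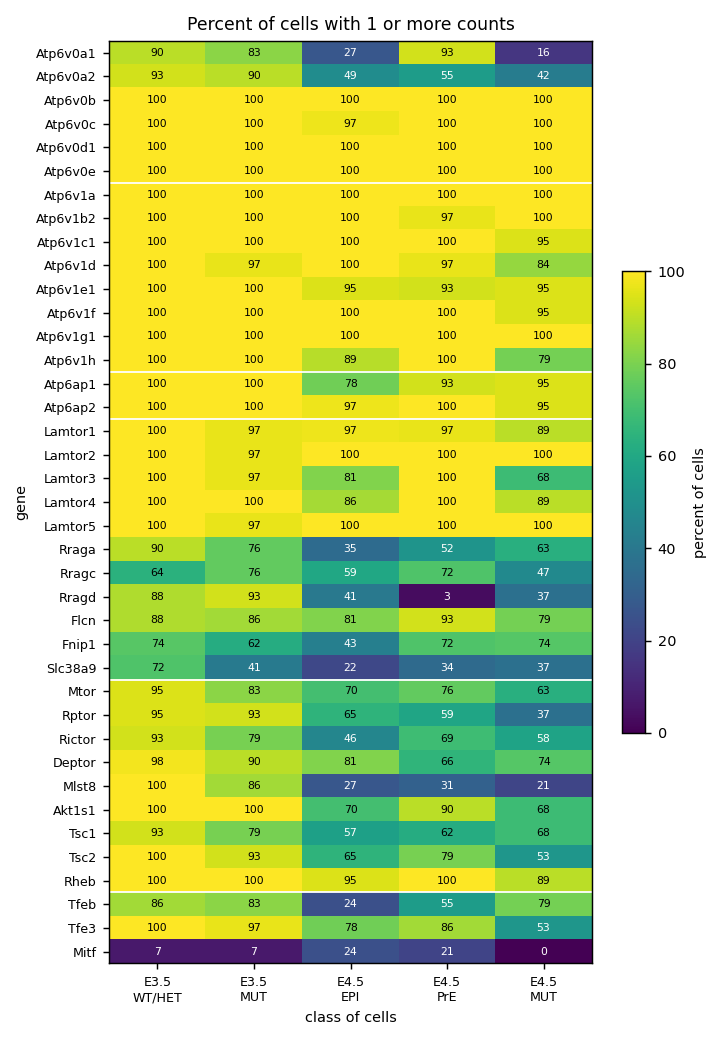
Percent of cells with 1 or more counts of each member in the 5 classes, rounded to whole percent, with white lines between subgroups. Pump genes other than Atp6v0a1 and Atp6v0a2 are at or near 100 in most classes, Rragd falls to 3 in PrE, and Tfeb is at 24 in EPI and 79 in E4.5 MUT cells.

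By the test of the difference between stages, the MUT effect differed for 1 member, a count near the share over all genes. The change of Atp6v0b in MUT against control ICMs was larger at E4.5 than at E3.5 by 1.03 on the log2 scale (SE 0.29, adjusted p = 0.0393). At E3.5 it had 227, 252.5, 335 and 373 CPM in MUT and 242 to 334 CPM in control embryos, at -0.05 (SE 0.16, adjusted p = 0.911). Called were 1 of 39 members and 5.46% of all 16410 genes (2.71% higher and 2.75% lower). The call held without embryo 1, 4, 5, 6, 11, 12 or 17 and was lost without any other of the 19 embryos. It was also lost with WT embryos as the only controls, with cells weighted equally and without a filter on low counts. Without embryo 2, 7, 16 or 19, 1 other member was called in its place, and without embryo 10, 2 others were. In all, the Atp6v0b call held in 11 of 26 alternatives, with log2 differences from 0.82 to 1.22. The difference between stages was 0.82 for Atp6v0e (adjusted p = 0.0668), 0.36 for Atp6ap2 (adjusted p = 0.806) and 0.19 for Atp6v1a (adjusted p = 0.951).

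More members were called between stages in control embryos, as were more of all genes. In EPI against E3.5 ICM, 15 of 38 members were called, 5 higher and 10 lower, where 31.9% of all 11142 genes were (15.5% higher and 16.4% lower). The lower genes were led by Atp6v1a (-1.59, SE 0.20, adjusted p = 2.94e-05), Rheb (-1.21, SE 0.16, adjusted p = 4.83e-05), Atp6ap2 (-1.97, SE 0.26, adjusted p = 5.08e-05) and Atp6v0d1 (-1.39, SE 0.24, adjusted p = 0.000377). Pump genes, 16 of the 38 tested members, made up 7 of the 10, and 1 pump gene was called higher. Lamtor2 rose from 28.4 to 46.3 CPM (median 39.8) to 94.6 to 210 CPM, without overlap, a log2 fold change of 2.13 (SE 0.19, adjusted p = 1.13e-06), and Rragc, Flcn, Atp6v1f and Mtor rose too. The members' median was -0.57, against -0.06 over all genes.

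In PrE against E3.5 ICM, 13 of 38 members were called, 8 higher and 5 lower, where 31.7% of all 10800 genes were (14.8% higher and 16.9% lower). Flcn rose from 14.6 to 28.2 CPM (median 19.7) to 67.9 to 168 CPM (median 116), without overlap, at 2.54 (SE 0.25, adjusted p = 2.35e-06). Atp6v1b2 rose by 0.88 (SE 0.10, adjusted p = 1.28e-05), Lamtor2 by 1.28 (SE 0.20, adjusted p = 0.000168) and Lamtor3 by 1.32 (SE 0.26, adjusted p = 0.000953). Rheb fell from 207 to 359 CPM (median 269) to 118 to 183 CPM (median 144), by 0.93 (SE 0.15, adjusted p = 0.000259). Deptor fell by 2.23 (SE 0.64, adjusted p = 0.0148). The members' median was 0.05, against -0.10 over all genes. Weighting cells equally moved the median of all genes to -0.63 in EPI and -0.62 in PrE, and the members then split into 2 higher and 24 lower in EPI and into 7 higher and 15 lower in PrE. Both comparisons share the E3.5 control embryos.

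Other genes of the pathway were taken from 4 lists. Of 17 V-ATPase isoform and assembly genes, 11 were tested against EPI and 2 rose in E4.5 MUT cells, where 2.3% of all genes did. Atp6v0a4, a V0 isoform known from kidney and epididymis, had a mean of 93.6 CPM in MUT and no count in EPI, at least 2092-fold above the floor of 3 counts over the EPI sums (adjusted p = 0.00706), and 4.08 CPM in PrE. Rogdi, a subunit of the RAVE-like complex that assembles V1 on V0, had 337 CPM in MUT, 105 CPM in EPI and 57.2 CPM in PrE and was called against both (log2 fold changes 1.65 and 2.57, adjusted p = 0.00819 and 0.00718). Atp6v0e2 was called higher against PrE (22.1 against 0.0167 CPM, adjusted p = 0.0146), so that 2 of 10 rose there, where 1.74% of all genes did. Atp6v0a4 against EPI and Atp6v0e2 against PrE passed the filter on low counts only through their MUT counts. These calls, and the counts of risen genes that hold them, therefore do not show that the list rose. At E3.5 1 of 10 was called, where 3.2% of all genes rose, the assembly factor gene Tmem199 at 133 CPM in MUT and 73.7 CPM in control embryos (0.86, adjusted p = 0.0167).

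Of 23 amino acid sensing and TSC/Rheb genes, 22 were tested at E3.5 and 2 rose in MUT, where 3.2% of all genes did. Ddit4, whose product REDD1 acts through TSC to restrain mTORC1, was at 14.4 CPM in MUT and 2.36 CPM in controls (2.63, adjusted p = 0.0138). Slc3a2, the heavy chain of an amino acid exchanger, was at 299 and 134 CPM (1.18, adjusted p = 0.0119). At E4.5 0 of 23 were called against EPI. Against PrE, where 2.07% of all genes fell, 3 of 21 did: Sec13 of GATOR2 (by 2.60, adjusted p = 0.00952), the glutamine carrier Slc38a2 (by 3.04, adjusted p = 0.0231) and Sesn3, a sestrin (by 7.95, adjusted p = 0.0441).

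Of 14 mTORC2, assembly and output genes, none passed in MUT at E3.5 or against EPI, with 12 tested in each. Against PrE 1 of 13 was lower, where 2.07% of all genes were: Tfec, the MiT/TFE gene outside the 39 members, had a mean of 203 CPM in PrE and no count in E4.5 MUT embryos, at least 2000-fold below (adjusted p = 0.00719). In this comparison Tfec passed the filter on low counts only through PrE. It was at 1.26 CPM in EPI and 0.226 CPM in E3.5 controls.

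The list of 20 known TFEB target genes, lysosomal enzymes and membrane proteins for the most part, gave more calls. In E4.5 MUT cells 9 of 19 tested rose against EPI and 0 fell, with all 19 positive and a median log2 fold change of 1.60, where 2.3% of all genes rose and the median was -0.03. The marker sums given above for these embryos differ in the same comparison, and their part in the values of this list was not tested. The smallest adjusted p belonged to Psap, the saposin precursor (5597 CPM in MUT, 196 in EPI, 4.81, adjusted p = 0.00038), Lamp1, a lysosomal membrane protein (1286 and 419 CPM, 1.59, adjusted p = 0.00051), and Gla, an alpha-galactosidase (253 and 25.95 CPM, 3.25, adjusted p = 0.00118). Against PrE 3 of 18 rose, where 1.74% of all genes did, among them Psap (4.68, adjusted p = 8.75e-05) and Ctsa (1.92, adjusted p = 0.0166). In control embryos the list was itself low in EPI. Between EPI and PrE, 5 of 17 were called lower in EPI and 1 higher, where 5.2% of all genes were lower. The median was -0.99. Against E3.5 ICM, 9 of 17 were lower in EPI and 0 higher, where 16.4% of all genes were lower. The median there was -0.75. At E3.5 3 of 18 rose in MUT, where 3.2% of all genes did: Ctsb (1.07, adjusted p = 0.00911), Ctsa (0.75, adjusted p = 0.0136) and Hexa (0.88, adjusted p = 0.029). By the test between stages 7 of 19 targets rose more at E4.5, where 2.71% of all genes did, led by Psap (4.05, adjusted p = 2.23e-05). Among the other lists Sec13 (-2.16) and the autophagy kinase gene Ulk1 (2.08) had the smallest adjusted p, 0.00179 each. Targets of TFEB are also induced by other factors, and TFEB activity was not measured in these embryo cells. In embryonic stem cells, the study reports by staining that TFEB protein moved into the nucleus after OCT4 was deleted.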

How the data were processed

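The authors aligned 125 bp read pairs to mm10 with STAR and counted them per Ensembl gene with HTSeq, and the deposited values are raw counts per gene and cell, without normalization, of cells that passed the authors' quality control. Of all read pairs, 4.72% lay in no gene, 8.65% in more than 1 and 32.3% aligned to more than 1 place, and these rows were left out. Cells had 363819 to 4644070 counts. PCR reads without molecular identifiers are not independent molecules, so floors cover counting error only. The embryo of each cell was read from the sample table of the study, and genotype, stage and lineage from the labels. Symbols, coordinates and exon lengths came from GENCODE M21 (GRCm38), and levels per kb use the union of exons, which need not be the isoforms present.

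Counts were summed per embryo and class. Genes passing filterByExpr were tested with edgeR 4.0.16 (R 4.3.3, limma 3.58.1), quasi-likelihood F test, TMM scaling and Benjamini-Hochberg adjustment over all tested genes at 0.05, with a prior count of 0.125 for fold changes. Each comparison used only its own groups. SE is the fold change divided by the root of F. CPM in the text come from 1 scaling over all 25 sums. The study itself tested single cells with scde, and embryo sums were used here because cells of an embryo are not replicates. The fitting code was tested on simulated data with known changes. EPI and PrE sums of an embryo correlated at 0.0661, 0.0465, 0.00894, 0.0424, 0.0142 and 0.0473 after removal of lineage means, so embryo was a block only in an alternative.

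Full values are given for members called in a comparison and among the 5 smallest adjusted p there, and for Rptor, Deptor, Mtor, Tfeb, Tfe3 and Mitf. Of other pathway genes, those called in a MUT comparison are named, up to 3 each, except 1 that is not reported here. The members and lists were chosen with earlier results of these data known. Alternatives were DESeq2 1.42.0, its size factors, no filter, a filter at 10 CPM, equal weight for cells, 9 shallow cells left out, WT controls only, each embryo left out and, for shares, a threshold of 5 counts and thinned cells.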

Additional observations from a re-analysis of the deposited data

Results flagged for a closer look

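Of 64 sets of embryo values examined (16 members in 4 classes of 4 to 7 embryos), 7 held 1 embryo flagged by Dixon's test. Its gap to the next exceeded the 95% limit, which chance alone passes in about 1 of 20 sets of normally distributed values. Sets that are mostly 0 are not of that kind. Mitf in E3.5 MUT, with counts in 1 embryo only, passes the limit by its zeros. Deptor stood highest in E3.5 MUT embryo 10, at 158 CPM, and in EPI of embryo 6, at 89.7 CPM. Among E3.5 controls, Atp6v0b was lowest in embryo 11, at 242 CPM, and Atp6v1b2 was lowest in embryo 18, at 215 CPM. Atp6v0d1 was highest in PrE of embryo 2, at 162 CPM. Mitf was highest in E3.5 control embryo 16, at 8.15 CPM, and in E3.5 MUT embryo 12, at 1.60 CPM, and besides these only control embryos 14 and 15 had counts at E3.5, in 1 cell each.

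The MUT effect on Atp6v0b differed between stages by a test of the difference itself, with a log2 difference of 1.03 (E4.5 minus E3.5, adjusted p = 0.0393). Of the 39 members 1 was called by this test, where 5.46% of all genes were (2.71% higher), so the count is not particular to the members. The call held in 11 of 26 alternatives.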

How the results depend on the processing

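Over the 44 fold changes of called members, all 804 alternative values kept their direction, 688 kept the call and 116 lost it. Over all genes, DESeq2 called 1607 at E3.5 (746 in the reported fit), 1711 against EPI (637), 1223 against PrE (466), 1447 for EPI against PrE (958), 2407 against whole ICMs (1039) and 1850 for the interaction (896). In that order equal weight gave 1353, 1479, 1097, 1824, 1770 and 1445, and WT controls gave 435, 48, 27, 3, 25 and 470. Equal weight gave 5793 for EPI (3557) and 5191 for PrE (3420) against E3.5. The counts of called members moved as follows. DESeq2 gave 3 for E3.5 MUT against control, 9 for E4.5 MUT against EPI, 5 against PrE, 9 against whole control ICMs and 5 for the interaction. A filter at 10 CPM gave 1, 8 and 1 for the first 3 of these and 4 for the interaction, and no filter gave 0 for the interaction. Over all genes, the filter at 10 CPM called 729 of 7207, 792 of 7863, 580 of 7773 and 964 of 7789 in that order. No filter called 709 of 24772 genes for the interaction. Equal weight for cells gave 1, 2, 3, 1 and 2 in the same order as DESeq2, and 26 for EPI and 22 for PrE against E3.5. WT embryos as the only controls gave 0 for MUT against EPI, EPI against PrE, whole ICMs and the interaction, and 8 for PrE against E3.5, with 2 WT embryos at E4.5.

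With embryo as a replicate block, EPI against PrE called 5 members and 840 genes, against 6 and 958 without it, with Lamtor2 the call that was lost. Leaving out each embryo gave 0 to 1 members at E3.5, 0 to 5 against EPI, 0 to 1 against PrE, 3 to 5 for EPI against PrE, 13 to 16 and 11 to 15 for EPI and PrE against E3.5, 1 to 5 for whole ICMs and 0 to 4 for the interaction, whose 4 calls, without embryo 3, were all lower (Atp6v0a1, Flcn, Mlst8 and Rptor). A lone MUT embryo was assumed to vary like the other group. EPI against PrE kept 3 calls without embryo 2 (Atp6ap2, Atp6v1b2 and Lamtor3). Against PrE, 1 was called without embryo 3 (Atp6v0a1) or 6 (Atp6v0e), and at E3.5 1 without embryo 10 (Deptor) or 12 (Atp6v0c). Uncalled fold changes were followed by sign only for Rptor, Deptor, Mtor, Tfeb, Tfe3 and Mitf, in MUT against control, EPI and PrE. Among these, Tfeb at E3.5 turned sign with equal weight for cells (-0.12). Deptor against EPI did so with equal weight (-0.058) and when single embryos were left out (-0.48 to 1.34). Tfe3 did so when single embryos were left out, against EPI (-0.89 to 0.20, positive without embryo 3 or 5) and against PrE (-0.75 to 0.40, positive without embryo 3, 4 or 5). Over all members, equal weight moved the number with positive fold changes from 18 to 11 at E3.5, from 29 to 23 against EPI and from 24 to 18 against PrE. The cause was not tested. Genes with counts in few cells, such as Atp6v0a1, Mlst8 and Slc38a9, had SEs of 2.68, 1.94 and 1.90 against EPI.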
